A study of Mus musculus with 19 samples.

Results

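The 42 genes described here encode enzymes and core subunits that place or remove histone methyl groups or remove histone acetyl groups. They comprise 18 methyltransferases and subunits of Polycomb repressive complex 2 (PRC2), called writers below, 13 demethylases and 11 deacetylases. Each was found by its gene symbol among the 36172 genes of the deposited table, and no 2 rows shared a member's symbol. All 42 of 42 passed the filter on low counts, after which 15518 genes were tested. Whole ovaries of female C57BL/6 mice, an inbred strain, were sampled at 3, 6, 9 and 12 months, with no other treatment or genotype in the labels. The ages of 3, 6 and 9 months have 5 libraries each and that of 12 months has 4, with 10851519 to 14302207 estimated counts each. Levels are given as CPM, counts scaled to the size of the library, and changes as log2 differences with a standard error (SE). Replicates are listed in the order of their number, which pairs nothing between ages.

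Histone methylation acts according to the residue that carries it. PRC2 methylates lysine 27 of histone H3 (H3K27) and keeps developmental genes silent, methylation of H3K9 marks heterochromatin and silenced retroelements, and methylation of H3K36 lies over transcribed genes and steers DNA methylation. Demethylases of the flavin-dependent LSD family and of the JmjC family reverse these marks, and deacetylases close chromatin within corepressor complexes. In the ovary several of these enzymes are known from the growing oocyte, where they set up the epigenome that the egg passes on, and others from the dividing granulosa cells of growing follicles.

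A whole ovary mixes oocytes, granulosa, stromal, vascular and immune cells, so fewer cells of a type and less RNA per cell cannot be told apart. Summed levels of 20 oocyte markers ran from 550 to 850.2 CPM at 3 months, 320.5 to 642 at 6 months, 39.9 to 253 at 9 months and 115 to 270.3 at 12 months. The sums over 24 markers of dividing cells were 1233 to 1880.2, 1193 to 1607, 622 to 955 and 813 to 1279.8 CPM at the same ages. None of these markers was at 0 in every library. Whether libraries of an age come from different mice is not stated in the labels. The 3 libraries of replicates 1 and 2 at 9 months and replicate 2 at 12 months stood apart with 6.15, 10.66 and 12.55 CPM of the B cell and follicular dendritic cell gene Cr2, against at most 0.84 CPM in the other libraries. Calls of members that change without these 3 libraries are given both ways.

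Between 3 and 12 months 12 of the 42 enzymes fell and 1 rose past an adjusted p of 0.05 in edgeR's quasi-likelihood test, and 29 did not pass. Of all genes tested, 11.5% fell and 10.9% rose. Without replicate 3 at 12 months the 12 falls became 7, and without the 3 Cr2-rich libraries 13, with Eed and Hdac8 added and Kdm1a lost. Among all genes 1782 fell with all libraries, 1038 without replicate 3 at 12 months and 2005 without the Cr2-rich libraries. The 1 rise, that of Hdac7, became 0 without replicate 2 at 3 months, or replicate 2 or 3 at 12 months. Without replicate 5 at 3 months Hdac10 rose in its place, and without the Cr2-rich libraries Hdac11 did. Hdac5 took its place in a fit of only the ages compared, and Kdm6a with the length and GC correction given below. Of 18 writers 7 fell, 3 of 13 demethylases fell, and of 11 deacetylases 2 fell and 1 rose. The median log2 change was -0.18 for writers, -0.07 for demethylases and 0.09 for deacetylases, with -0.13 over the 42 enzymes and 0.02 over all genes tested. These medians are without the length and GC correction given below. Changes ranged from -0.78 for Ezh2 to 0.33 for Hdac11, so no member changed as much as 2-fold. A linear trend with age, expressed over the 9 months of the study, showed a fall for 16 members and a rise for 1 (1 to 3 when single libraries were left out), where 14.8% of all genes fell and 14.7% rose. The 4 members added by the trend were Ehmt1, Suv39h1, Kdm2b and Hdac6, and without the Cr2-rich libraries the 16 falls became 14, without Ehmt1 and Hdac6, and the 1 rise 2, with Hdac11. The libraries of 12 months lay entirely below those of 3 months for 7 members and entirely above them for 1, Hdac5. Over all genes tested such separations were found for 9.75% and 6.72%.

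**Figure D1:**
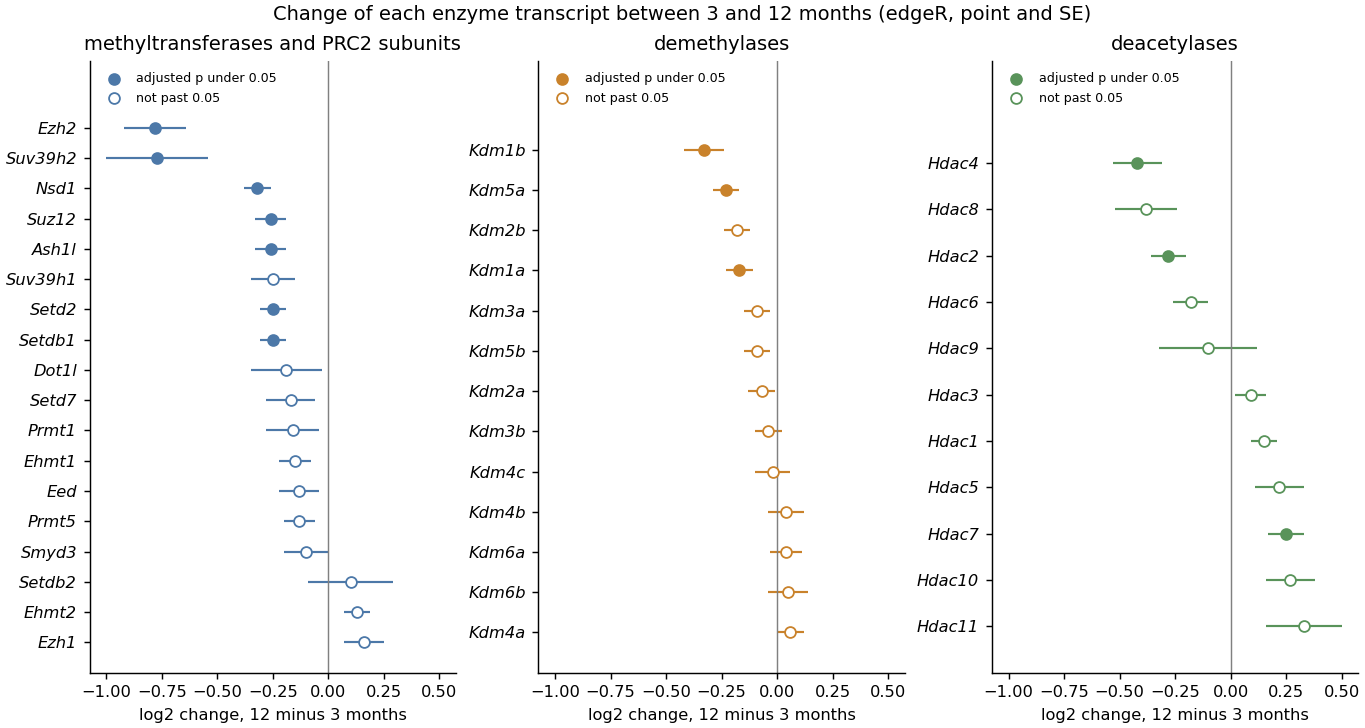
The horizontal axis is the log2 change from 3 to 12 months and each row is 1 enzyme, ordered by change within its class, with the fitted value as a point, the SE as a bar and filled points for an adjusted p under 0.05. Writers lie mostly left of zero, with Ezh2 at -0.78 and Suv39h2 at -0.77, while deacetylases spread to both sides, from -0.42 for Hdac4 to 0.33 for Hdac11.

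The core subunits of PRC2 did not move together. Ezh2, its main catalytic subunit, which transfers methyl groups to H3K27, lies at chr6:47530274-47595270 on GRCm38.p6, the assembly of mm10. Its libraries gave 66.9, 48.8, 67.6, 53.3 and 69.9 CPM at 3 months, 44.4, 41.9, 48, 45.8 and 54.8 CPM at 6 months, 34.9, 26.6, 34.8, 33.3 and 41.9 CPM at 9 months, and 33.1, 34.7, 28.3 and 46.2 CPM at 12 months. Every library of 12 months lay below every library of 3 months, and every library of 9 months below every library of 6 months. Its mean was 61.3 ± 9.58 CPM (SD, n = 5) in the youngest group and 35.6 ± 7.61 CPM (SD, n = 4) in the oldest, a log2 change of -0.78 ± 0.14 (edgeR adjusted p = 0.00184). Expressed as a percentage, the mean fell by 41.9%. At 3 months replicates 1, 3 and 5 had 66.9, 67.6 and 69.9 CPM of Ezh2 and 1880.2, 1870 and 1809 CPM of dividing cell markers. Replicates 2 and 4 had 48.8 and 53.3 CPM of Ezh2 and 1233 and 1324 CPM of those markers. The part of dividing cells in the change of Ezh2 was not tested.

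Suz12, the scaffold that holds PRC2 together, gave 162, 150.0, 153, 141 and 165 CPM at 3 months, 158, 166, 155, 158 and 169.5 CPM at 6 months, 142, 120.2, 115, 136 and 134 CPM at 9 months, and 128, 147, 115 and 126 CPM at 12 months. All 9 month libraries were below all 6 month libraries, while the 12 month libraries overlapped those of 3 months through replicate 2 at 12 months. Its log2 change from 3 to 12 months was -0.26 ± 0.07 (adjusted p = 0.0185), and without replicate 3 at 12 months it no longer passed. Ezh1, the paralog of Ezh2 with weaker catalytic activity and a place in non-dividing cells, gave 82.1, 90.3, 95.5, 96.8 and 84.6 CPM at 3 months, 112, 88, 99.9, 94.3 and 91.6 CPM at 6 months, 98.8, 119, 127, 109.6 and 89.3 CPM at 9 months, and 91.3, 106, 97.8 and 108 CPM at 12 months. The 9 month libraries were spread most widely, and all 4 ages overlapped. Its log2 change was 0.16 ± 0.09 and did not pass (adjusted p = 0.216), and along the trend Ezh1 passed as higher only without replicate 1 at 12 months. Eed, the subunit that reads methylated H3K27, had a log2 difference of -0.13 ± 0.09 (adjusted p = 0.302) and had means between 44 and 48.8 CPM at every age. Without the Cr2-rich libraries the change of Eed was -0.24 and passed (adjusted p = 0.0459), as it did with only replicate 2 at 12 months left out.

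Among the 6 methyltransferases of H3K9, Setdb1 and Suv39h2 fell. Setdb1 (chr3:95323525-95357202), which silences retroelements together with the corepressor TRIM28, gave 81.8, 85.2, 89.2, 88.3 and 91.1 CPM at 3 months, 79.4, 81.5, 79.5, 86.8 and 95.5 CPM at 6 months, 75.9, 66.3, 72, 73.4 and 73.2 CPM at 9 months, and 69.4, 76.1, 78 and 68.8 CPM at 12 months. It was the 1 member for which all 9 libraries of 9 and 12 months lay below all 10 libraries of 3 and 6 months, a separation found for 2.61% of all genes tested. Its log2 change was -0.25 ± 0.06 (adjusted p = 0.00957), small beside that of Ezh2 but with less spread between libraries. Suv39h2 (chr2:3455815-3474986), which methylates H3K9 in pericentromeric heterochromatin, was among the scarcest members and gave 16.1, 9.64, 15.9, 13.2 and 14.5 CPM at 3 months, 11.3, 9.60, 11.5, 11.8 and 15 CPM at 6 months, 7.65, 3.82, 6.54, 10.3 and 9.97 CPM at 9 months, and 7.19, 9.64, 6.68 and 8.99 CPM at 12 months. Replicate 2 at 3 months and replicate 2 at 12 months met at 9.64 CPM, while the other 3 month libraries were above every 12 month library. Its log2 change of -0.77 ± 0.23 was as large as that of Ezh2 with a wider error (adjusted p = 0.0222), and the call was lost when 1 of 4 libraries was left out (replicate 1 or 3 at 3 months, replicate 1 or 3 at 12 months). The gene body of Suv39h2 shares 18397 bases with that of Dclre1c, and whether reads were counted by strand is not given in the sources used here, so its level is uncertain. Ash1l, Setd7, Kdm1a, Kdm1b, Kdm5a and Hdac7 share 800, 839, 4193, 513, 271 and 32 bases with a neighbour that was also tested, and carry the same uncertainty. So do Setdb2, which shares 38872 bases with the protein-coding Gm45935, and Hdac8 and Smyd3, which share 208974 and 30682 bases with long noncoding RNA genes, although these neighbours were not among the genes tested. Ezh2, Setdb1, Kdm2a, Kdm2b, Kdm4b, Kdm5b, Kdm6b, Hdac4, Hdac7, Hdac9 and Hdac10 also overlap neighbours that were not tested. The shared span was 62 bases for Ezh2, 75 for Setdb1 and 8998 for Hdac4.

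Suv39h1, its X-linked paralog, gave 45.6, 34.7, 48, 43.4 and 42.3 CPM at 3 months, 40.7, 37.5, 36.8, 42.1 and 41.7 CPM at 6 months, 30.7, 26.2, 30.6, 29.3 and 33.7 CPM at 9 months, and 31.5, 38.3, 31.2 and 42.8 CPM at 12 months. All 9 month libraries lay below all 6 month libraries, and replicate 4 at 12 months was back at the 3 month level. The change from 3 to 12 months was -0.25 ± 0.10 (adjusted p = 0.0861), while the trend passed at -0.37 ± 0.12 (adjusted p = 0.0291). The trend call was lost without replicate 1, 3, 4 or 5 at 3 months or replicate 1 or 3 at 12 months, and the change from 3 to 12 months passed without replicate 2 at 3 months or replicate 4 at 12 months. Ehmt1, which forms with Ehmt2 the heterodimer that methylates H3K9 in euchromatin, gave 98.1, 101, 87.1, 107 and 91.6 CPM at 3 months, 89.5, 89.5, 91.9, 100.5 and 103 CPM at 6 months, 81, 80.5, 87.6, 86 and 89.4 CPM at 9 months, and 76.5, 92.1, 86.6 and 93.8 CPM at 12 months. Its 9 month libraries were all below its 6 month libraries by a narrow margin, and 3 and 12 months overlapped. It passed in the trend alone, at -0.19 ± 0.07 (adjusted p = 0.0427), and this call was lost in 17 of 27 other settings at the same threshold, 14 of them with a single library left out. Without the Cr2-rich libraries the trend of Ehmt1 was -0.19 (adjusted p = 0.0689). Its partner Ehmt2 had a log2 difference of 0.13 ± 0.06 (adjusted p = 0.16), and Setdb2 one of 0.10 ± 0.19 (adjusted p = 0.736).

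Of the members that fell, 3 writers have a RefSeq promoter window that does not overlap the annotated body of their own gene, and these are shown so that the sequence before members that fell can be seen beside their levels. Each line gives the 250 bases before the start on build GRCm38.p6, 5′ to 3′, for Suz12 from the plus strand at chr11:79992856-79993105, for Suv39h2 from the minus strand at chr2:3474987-3475236 and for Setdb1 from the minus strand at chr3:95357203-95357452. Capitals mark words of the E2F type, named after the cell cycle factor family that binds such words, and CCAAT boxes, on either strand.
Suz12: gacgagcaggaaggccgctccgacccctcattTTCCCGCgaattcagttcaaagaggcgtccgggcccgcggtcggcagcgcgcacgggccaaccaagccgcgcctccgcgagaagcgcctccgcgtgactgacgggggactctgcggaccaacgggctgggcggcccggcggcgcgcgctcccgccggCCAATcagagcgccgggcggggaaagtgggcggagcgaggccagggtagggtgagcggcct
Suv39h2: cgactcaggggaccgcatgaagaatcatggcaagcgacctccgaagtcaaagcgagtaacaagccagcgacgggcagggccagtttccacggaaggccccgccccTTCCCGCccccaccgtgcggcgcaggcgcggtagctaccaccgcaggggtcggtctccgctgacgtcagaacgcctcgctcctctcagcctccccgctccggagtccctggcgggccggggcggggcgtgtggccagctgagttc
Setdb1: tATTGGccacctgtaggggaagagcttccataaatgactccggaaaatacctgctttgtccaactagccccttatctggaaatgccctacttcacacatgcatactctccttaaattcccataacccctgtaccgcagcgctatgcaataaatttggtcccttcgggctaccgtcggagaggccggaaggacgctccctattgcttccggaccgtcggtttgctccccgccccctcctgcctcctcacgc
An E2F-type word here is TTCCCGC or TTCGCGC or TTGCCGC or TTGGCGC on either strand. Suz12 held 1 such word from position -218 and a CCAAT box from -61, Suv39h2 held 1 word from -145, and Setdb1 held no such word and a CCAAT box from -249, counted back from the start. Of the 31 members with an entry, 6 of 43 windows (14%) held an E2F-type word, against 7.89% of all 32851 windows. CCAAT was present in 39.5% of member windows and 33.8% of all windows, and the words TTTGAA or TTCGAA in 14% and 17.1%. Among the 9 members that fell and had a window, Suz12 and Suv39h2 were the 2 with an E2F-type word. These are matches of letters within 250 bases and describe the sequence alone.

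The 3 members that methylate H3K36 all fell. With the correction for length and GC content given below, Setd2 and Ash1l no longer passed from 3 to 12 months or along the trend. Nsd1, which dimethylates H3K36, had the highest CPM of the 42 members and gave 241, 295, 282, 281 and 283 CPM at 3 months, 277, 262, 277, 268 and 264 CPM at 6 months, 238, 249, 249, 246 and 243 CPM at 9 months, and 209, 245, 202 and 232 CPM at 12 months. The 9 month libraries were below all 6 month libraries, and replicate 1 at 3 months was low enough to overlap with 12 months. From 3 to 12 months Nsd1 differed by -0.32 ± 0.06 on the log2 scale (adjusted p = 0.00246). Setd2, the enzyme that adds the third methyl group at H3K36 behind elongating polymerase, gave 161, 169, 172, 172 and 173 CPM at 3 months, 186, 169, 176, 174 and 176 CPM at 6 months, 157, 157, 144, 156 and 145 CPM at 9 months, and 132, 166, 128 and 145 CPM at 12 months. Replicate 2 at 12 months stood at the level of the younger libraries and the other 3 were below every 3 month library. For Setd2 the log2 change was -0.25 ± 0.06 (adjusted p = 0.00986). Ash1l, a large H3K36 methyltransferase of the Trithorax group, gave 151, 179.7, 157, 170.3 and 163 CPM at 3 months, 186, 173, 178, 189 and 183 CPM at 6 months, 149, 162, 146, 137 and 141 CPM at 9 months, and 125, 160.4, 135 and 127 CPM at 12 months. Its mean was highest at 6 months, with 182 ± 6.33 CPM (SD, n = 5), and replicate 2 was the highest library of both 9 and 12 months. The change from 3 to 12 months was -0.26 ± 0.07 (adjusted p = 0.0144).

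In edgeR with all libraries and no correction for GC content, none of the other 5 writers passed between 3 and 12 months, along the trend or over any step. Setd7, a monomethyltransferase of H3K4 and of other proteins, gave 151, 176, 149, 142 and 158 CPM at 3 months, 184, 135, 157, 145 and 152 CPM at 6 months, 156, 210.3, 172, 188 and 132 CPM at 9 months, and 136, 155, 123 and 136 CPM at 12 months. Its highest value was that of replicate 2 at 9 months, the ages overlapped, and its log2 difference from 3 to 12 months was -0.17 ± 0.11 (adjusted p = 0.274). Prmt1, which carries out most asymmetric arginine dimethylation, gave 157, 146, 138, 148 and 160.1 CPM at 3 months, 114, 138, 132, 132 and 138 CPM at 6 months, 120.5, 95.5, 112, 106 and 149.9 CPM at 9 months, and 112, 120.4, 134 and 169.5 CPM at 12 months. Replicate 5 at 9 months lay within the 3 month range and replicate 4 at 12 months above it, and the log2 difference was -0.16 ± 0.12 (adjusted p = 0.345). Prmt5, the main enzyme of symmetric arginine dimethylation, had a difference of -0.13 ± 0.07, Dot1l, which methylates H3K79, one of -0.19 ± 0.16, and Smyd3 one of -0.10 ± 0.10 (adjusted p = 0.154, 0.419 and 0.493). Along the trend Prmt5 passed in limma-voom with sample weights, and Prmt1, Prmt5 and Dot1l passed without replicate 4 at 12 months. Prmt1 and Prmt5 also passed along the trend with the length and GC correction given below.

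**Figure D2:**
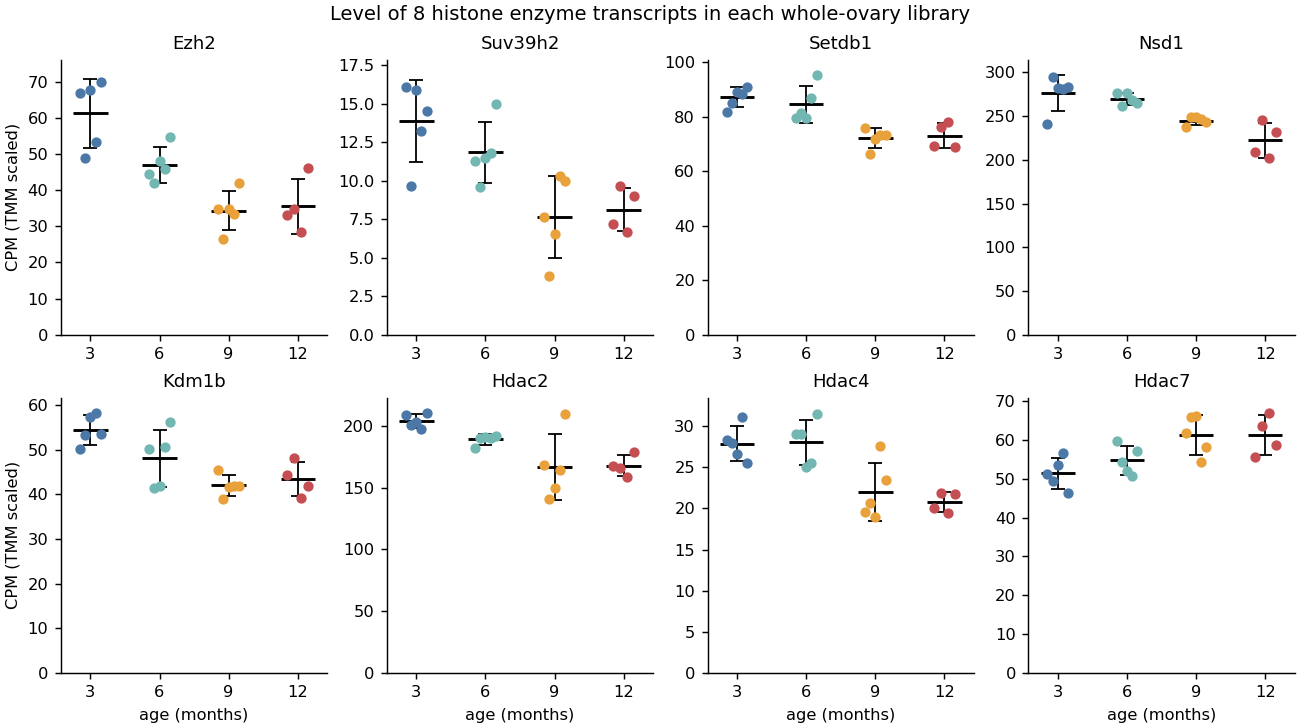
Each panel is 1 gene, with age in months on the horizontal axis and CPM from zero on the vertical axis, a point per library, the mean as a bar and the SD as whiskers (n = 5, 5, 5 and 4). Ezh2 and Suv39h2 are lower at 9 and 12 months than at 3 months with wide scatter, Setdb1 separates the 2 younger from the 2 older ages, and Hdac7 is the 1 gene of these that is higher at 12 months.

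The 13 demethylases spanned log2 differences of -0.33 to 0.06, and the 3 that fell belong to the LSD and KDM5 families. Kdm1b (chr13:47043373-47085279), an LSD enzyme known from the growing oocyte, where maternal DNA methylation imprints depend on it, gave 50.1, 53.3, 57.3, 58.3 and 53.5 CPM at 3 months, 50.3, 41.4, 41.9, 50.6 and 56.2 CPM at 6 months, 45.6, 39, 41.7, 42 and 41.8 CPM at 9 months, and 44.3, 48.2, 39.2 and 41.9 CPM at 12 months. The 12 month libraries were all below the 3 month libraries, and the 6 month libraries overlapped both. Its log2 change was -0.33 ± 0.09 (adjusted p = 0.0132), the largest of the 13 demethylases, and it was lost without replicate 3 at 12 months. Kdm1a, or LSD1, which demethylates H3K4 within the CoREST complex, gave 126, 128, 121, 116 and 127 CPM at 3 months, 119, 114, 120.2, 113 and 129 CPM at 6 months, 102, 94.3, 106, 109.5 and 107 CPM at 9 months, and 107, 106, 109 and 117 CPM at 12 months. Replicate 4 at 12 months overlapped the lowest 3 month library. Its change of -0.17 ± 0.06 passed narrowly (adjusted p = 0.0346) and was lost in 10 of 18 other settings at the same threshold, among them the fit without the 3 Cr2-rich libraries. Kdm5a, which removes H3K4 trimethylation, gave 168, 167, 158, 159.5 and 172 CPM at 3 months, 159.5, 171, 173, 153 and 150.2 CPM at 6 months, 153, 154, 148, 141 and 154 CPM at 9 months, and 148, 151, 130.1 and 132 CPM at 12 months. The 12 month libraries lay below all 3 month libraries, and the change was -0.23 ± 0.06 (adjusted p = 0.00962).

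Kdm2b, an H3K36 demethylase that brings Polycomb complexes to CpG islands, gave 46.4, 45.7, 48.3, 49.2 and 51.9 CPM at 3 months, 49.5, 44.4, 48.7, 48.5 and 49.9 CPM at 6 months, 46.1, 38.2, 40.6, 41.1 and 39 CPM at 9 months, and 42.5, 40.7, 45 and 42.6 CPM at 12 months. Every 12 month library was below every 3 month library, yet the change of -0.18 ± 0.06 did not pass (adjusted p = 0.0523), and the trend did at -0.24 ± 0.07 (adjusted p = 0.0134). The change from 3 to 12 months passed in DESeq2, in limma on the authors' log2 values and without replicate 2 at 3 months. Kdm3b, a demethylase of H3K9, gave 117, 126, 123, 127 and 117 CPM at 3 months, 143, 123, 124, 136 and 129.6 CPM at 6 months, 117, 131, 112, 114 and 109.6 CPM at 9 months, and 121, 121, 121 and 113 CPM at 12 months. Its levels at 3 and 12 months overlapped, with a log2 difference of -0.04 ± 0.06 (adjusted p = 0.686). Kdm4a, which acts on H3K9 and H3K36, gave 104, 105, 96.1, 96.5 and 97.7 CPM at 3 months, 97.6, 93.4, 105, 108 and 105 CPM at 6 months, 96.9, 104, 109.7, 109.8 and 101 CPM at 9 months, and 103, 102, 98.6 and 113 CPM at 12 months. All ages overlapped, and the log2 difference was 0.06 ± 0.06 (adjusted p = 0.524). Kdm6a, the X-linked demethylase of H3K27, gave 103, 103, 103, 98.3 and 106 CPM at 3 months, 111, 107, 102, 105 and 106 CPM at 6 months, 98.7, 108, 91.8, 102 and 105 CPM at 9 months, and 106, 123, 100.4 and 92.2 CPM at 12 months. Replicate 2 at 12 months was the highest of all 19 libraries, and the difference of 0.04 ± 0.07 (adjusted p = 0.716) turned to -0.05 without that library. The remaining 6 demethylases, Kdm2a, Kdm3a, Kdm4b, Kdm4c, Kdm5b and Kdm6b, had log2 differences between -0.09 and 0.05, with SE between 0.06 and 0.09, and none passed in any comparison. Of the demethylases of H3K27, Kdm6b was called in no setting, and Kdm6a in the fit with a correction for length and GC content given below.

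Deacetylases went in both directions. Hdac2, a class I enzyme of the Sin3, NuRD and CoREST corepressors, gave 209, 201, 203, 197 and 210.4 CPM at 3 months, 182, 189.9, 191, 190.3 and 192 CPM at 6 months, 168, 141, 149.7, 164 and 209.5 CPM at 9 months, and 168, 166, 159 and 179 CPM at 12 months. The 12 month libraries were all below the 3 month libraries, and replicate 5 at 9 months stood at the 3 month level, apart from its group. Its log2 change was -0.28 ± 0.08 (adjusted p = 0.0175), and it did not pass without replicate 3 at 12 months. Hdac1, its paralog in the same complexes, gave 100.5, 107, 101, 103 and 101 CPM at 3 months, 96.6, 120.0, 102, 111 and 102 CPM at 6 months, 112, 102, 114, 99.3 and 114 CPM at 9 months, and 107, 120.4, 118 and 112 CPM at 12 months. The ranges at 3 and 12 months overlapped only between replicate 2 at 3 months, with 107.4 CPM, and replicate 1 at 12 months, with 106.7 CPM. Its log2 difference of 0.15 ± 0.06 did not pass (adjusted p = 0.086), while along the trend Hdac1 passed as higher in DESeq2 and without replicate 2 at 6 months or replicate 2 or 4 at 9 months. Hdac3, the catalytic subunit of the NCoR complex, had a log2 difference of 0.09 ± 0.07, and Hdac8, an X-linked class I enzyme that deacetylates cohesin, one of -0.38 ± 0.14 (adjusted p = 0.371 and 0.065). Hdac8 passed as lower at 12 months in DESeq2, without replicate 3 or 4 at 3 months, and without the Cr2-rich libraries, where the change was -0.45 (adjusted p = 0.0446).

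The class IIa enzymes shuttle between nucleus and cytoplasm and have little catalytic activity of their own. Hdac4 (chr1:91928779-92195702) gave 28.3, 28, 26.6, 31.1 and 25.5 CPM at 3 months, 29.1, 29.1, 25, 25.5 and 31.5 CPM at 6 months, 19.6, 20.6, 19, 27.6 and 23.4 CPM at 9 months, and 20, 21.9, 19.5 and 21.7 CPM at 12 months. The 12 month libraries were all below the 3 month libraries, and at 9 months replicates 4 and 5 were higher than the other 3. The log2 change of Hdac4 was -0.42 ± 0.11 (adjusted p = 0.00926), with a fall of 25.5% in the mean. Hdac7, known for its place in endothelial cells, was the member that rose and gave 51.2, 49.4, 53.6, 56.8 and 46.4 CPM at 3 months, 59.8, 54.3, 52, 50.8 and 57.3 CPM at 6 months, 61.9, 66.1, 66.2, 54.4 and 58.3 CPM at 9 months, and 55.7, 63.7, 67.1 and 58.7 CPM at 12 months. The ranges of 3 and 12 months overlapped through replicate 4 at 3 months and replicate 1 at 12 months. Its change of 0.25 ± 0.08 (adjusted p = 0.0258) was lost in 7 of 18 other settings at the same threshold, among them the fit without the 3 Cr2-rich libraries (0.23, adjusted p = 0.0568). Sums over 7 endothelial markers were 311 to 347 CPM at 3 months and 331 to 376 CPM at 6 months. They were 455 to 521 CPM at 9 months and 384 to 445 CPM at 12 months. Replicate 3 at 12 months, with the highest Hdac7 of its age, had the lowest endothelial sum of that age, 384.2 CPM. Replicate 5 at 3 months had the lowest Hdac7 and the lowest endothelial sum of its age, 46.4 and 311.3 CPM. The part of endothelial cells in the result was not tested. Hdac5 had a log2 difference of 0.22 ± 0.11 and Hdac9 one of -0.10 ± 0.22 (adjusted p = 0.163 and 0.777), although all Hdac5 libraries of 12 months were above all of 3 months. Along the trend Hdac5 passed as higher without replicate 1 at 6 months or replicate 5 at 9 months.

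Hdac6, the class IIb enzyme that deacetylates tubulin in the cytoplasm, gave 43.5, 37.5, 43.1, 42.9 and 37.7 CPM at 3 months, 42, 47.8, 43.9, 40.8 and 46.1 CPM at 6 months, 34.5, 29.7, 38.2, 35.6 and 37.9 CPM at 9 months, and 32.3, 34.9, 40 and 37.2 CPM at 12 months. All 9 month libraries lay below all 6 month libraries, and 12 months overlapped 3 months through replicate 3. It passed along the trend at -0.27 ± 0.10 (adjusted p = 0.041) but not between 3 and 12 months, at -0.18 ± 0.08 (adjusted p = 0.131). The trend call was lost in 13 of 27 other settings at the same threshold, 11 of them with a single library left out, and without the Cr2-rich libraries it was -0.20 (adjusted p = 0.116). Hdac11, the class IV enzyme, gave 36.4, 39.2, 42.6, 46.8 and 49.4 CPM at 3 months, 48.4, 43.6, 48, 46.4 and 35.8 CPM at 6 months, 43.3, 81.9, 55.8, 45.2 and 42.2 CPM at 9 months, and 59, 40.8, 60.1 and 55.7 CPM at 12 months. Replicate 2 at 9 months and replicate 2 at 12 months, both rich in Cr2, had the highest and the lowest value of these 2 ages. Summed levels of the 3 oviduct markers Ovgp1, Foxj1 and Pax8 were also highest and among the lowest there, with 6336.2 and 2398.1 CPM, and were 5210.3, 4195.8 and 3228.2 CPM in replicates 1, 3 and 4 at 12 months. The 3 month libraries had 1755 to 2858.7 CPM of these markers, and their part in the levels of Hdac11 was not tested. The log2 difference of 0.33 ± 0.17 did not pass (adjusted p = 0.172), whereas without the 3 Cr2-rich libraries it was 0.44 and passed (adjusted p = 0.00963). Hdac10, of class IIb, had a log2 difference of 0.27 ± 0.11 (adjusted p = 0.0794) and passed without replicate 5 at 3 months.

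Of the 3 steps between neighbouring ages, the one from 6 to 9 months held all calls among the members in edgeR with all libraries. Over that step 11 members fell and none rose, against 9.8% and 7.44% of all genes tested. The 11 were Ezh2, Suz12, Setdb1, Suv39h1, Setd2 and Ash1l among the writers, Kdm1a, Kdm2b and Kdm3b among the demethylases, and Hdac4 and Hdac6 among the deacetylases. The largest of these were Ezh2 at -0.46 ± 0.14 (adjusted p = 0.0267) and Suv39h1 at -0.40 ± 0.10 (adjusted p = 0.00997), while Suv39h2, at -0.63 ± 0.22, missed the threshold in edgeR (adjusted p = 0.0501) and passed in 6 of 19 other settings, DESeq2 and limma-voom included. Libraries of 9 months lay entirely below those of 6 months for 10 members and entirely above for 0, which 7.74% and 4.36% of all genes tested did. Without replicate 2 at 9 months 7 members fell, with the calls of Ezh2, Setdb1, Kdm1a and Hdac4 lost. Without replicate 5 at 9 months 14 members were called, with Kdm3b lost and Suv39h2, Hdac2, Ezh1 and Hdac5 added. Ezh1 and Hdac5 were then called as higher, and their changes with all libraries were 0.16 and 0.19. The call of Ezh2 was lost in 7 of 19 other settings, that of Hdac4 in 8 and that of Kdm3b in 12, in most of them with a single library of 6 or 9 months left out, and that of Setd2 without replicate 1 at 6 months. Without the 3 Cr2-rich libraries, 2 of which are of 9 months, 5 of the 11 calls remained, for Suz12, Setd2, Ash1l, Kdm2b and Kdm3b. With the length and GC correction given below 7 of the 11 remained, and those of Setdb1, Setd2, Ash1l and Hdac4 were lost. Among all genes 1521 fell, and 1076 without replicate 2 at 9 months, 1102 without the Cr2-rich libraries and 1339 with the correction. Over the same step 17 of 20 oocyte markers, 22 of 24 markers of dividing cells and 2 of 10 granulosa markers fell. In the other direction, 6 of 7 endothelial, 4 of 6 stromal and 3 of 9 macrophage markers rose. The part of these cell types in the changes of the members was not tested.

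The steps on either side held no call among the members. From 3 to 6 months 0 of 42 passed in edgeR, DESeq2 or limma-voom, with 3 at an unadjusted p under 0.05, and 0.0193% of all genes tested passed in edgeR. DESeq2 called 24 genes higher and 23 lower over that step, and limma-voom 70 and 104. From 9 to 12 months 0 of 42 passed by the same 3 tools, with 4 at an unadjusted p under 0.05, and 0.0% of all genes passed in edgeR. DESeq2 called 70 genes higher and 182 lower from 9 to 12 months, and limma-voom 0. Without replicate 5 at 9 months 1 member, Setd7, passed from 9 to 12 months. For Ezh2 the log2 difference from 3 to 6 months was -0.38 ± 0.13 (adjusted p = 0.427) and from 9 to 12 months 0.05 ± 0.14 (adjusted p = 0.898). Ash1l, by contrast, stood at 0.15 ± 0.07 from 3 to 6 months before its fall of -0.30 ± 0.07 to 9 months (adjusted p = 0.489 and 0.00571). There were 7 members called both from 6 to 9 and from 3 to 12 months. Hdac2, Hdac7, Kdm1b, Kdm5a, Nsd1 and Suv39h2 were called from 3 to 12 months alone of these 2 comparisons. In edgeR with all libraries and no length and GC correction, 24 members were called in no comparison. Over every other setting as well, 12 members were called nowhere, namely Ehmt2, Setdb2, Smyd3, Kdm2a, Kdm3a, Kdm4a, Kdm4b, Kdm4c, Kdm5b, Kdm6b, Hdac3 and Hdac9.

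**Figure D3:**
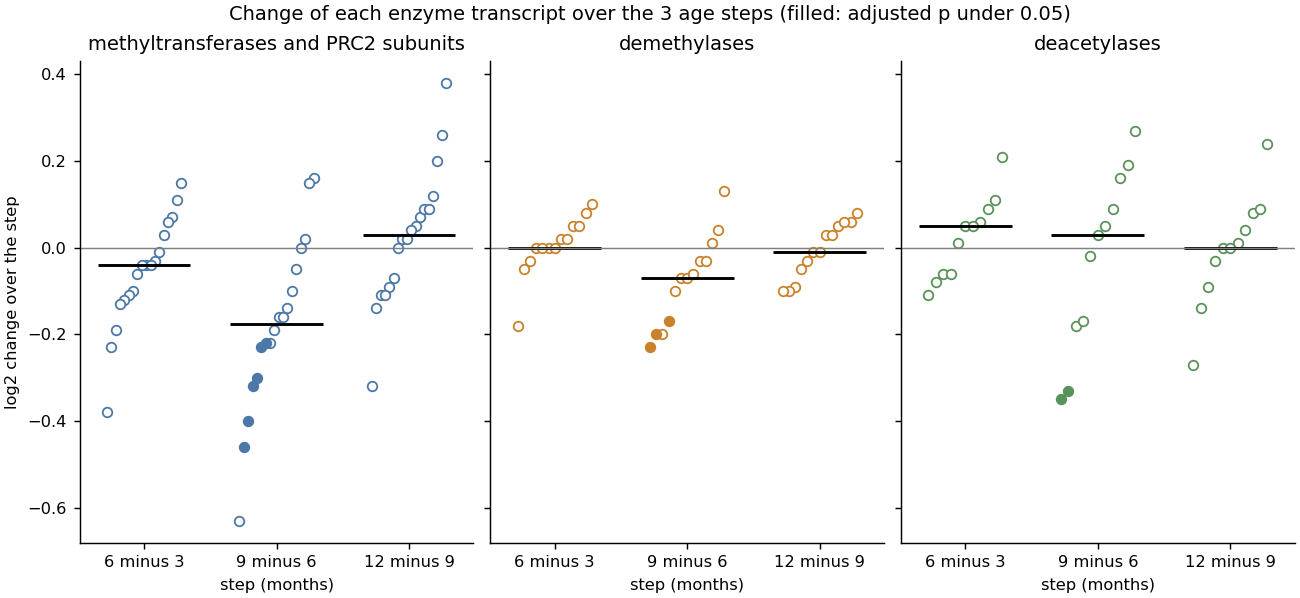
The vertical axis is the log2 change of each enzyme over 1 step, the horizontal axis the 3 steps, each point 1 enzyme sorted by its change, filled where the adjusted p was under 0.05, and the bar the class median. Filled points appear in the middle step only, where the medians were -0.18 for writers, -0.07 for demethylases and 0.03 for deacetylases.

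Levels of related enzymes were also set against each other within each library, as a description of the values already given. Per kilobase of transcript, the ratio of Ezh1 to Ezh2 was 0.801 to 1.23 at 3 months, 1.11 to 1.66 at 6 months, 1.41 to 2.97 at 9 months and 1.54 to 2.29 at 12 months. At 3 months 3 libraries were below 1 and 2 above it, and in every library of the other ages Ezh1 was the more abundant per length. The lengths are those of the longest transcript, 4207 bases for Ezh1 and 2787 for Ezh2, and the side of 1 depends on that choice. For Hdac1 over Hdac2 the ratio went from 0.765 to 0.853 at 3 months to 0.998 to 1.18 at 12 months. Hdac7 over Hdac4 went from 2.76 to 3.16 at 3 months to 4.23 to 5.38 at 12 months, and Suv39h1 over Suv39h2 from 3.95 to 5.01 to 5.51 to 6.60. In these 4 pairs the 12 month libraries were all above the 3 month libraries, which restates the changes given above and is no further result. The share of other gene pairs that separate in this way was not computed. The other 7 pairs overlapped, for example Ehmt2 over Ehmt1 with 2.47 to 3.07 at 3 months and 2.92 to 3.70 at 12 months, and Kdm6b over Kdm6a with 0.503 to 0.653 and 0.476 to 0.724.

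**Figure D4:**
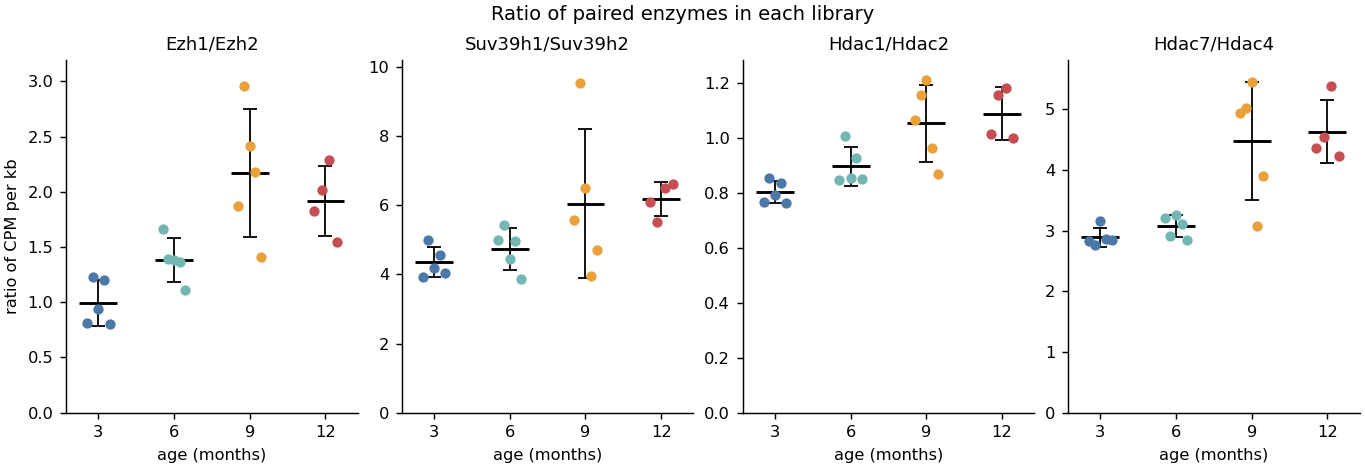
Each panel plots the ratio of the CPM per kilobase of 2 related enzymes, from zero, against age in months, a point per library, the mean as a bar and the SD as whiskers. The mean ratio of Ezh1 to Ezh2 was 0.996 at 3 months and 1.92 at 12 months, and the 9 month libraries scatter most in every panel.

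Levels per kilobase of transcript spanned a wide range among the members, with the longest transcript of each gene taken as its length. Over all 19 libraries Prmt1 was highest with a mean of 61.8 CPM per kilobase, followed by Hdac2 with 56.2 and Hdac1 with 52.8, and their SDs of 9.27, 6.42 and 3.64 exceed the gaps between them. The lowest were Hdac9 with 1.21, Suv39h2 with 2.42 and Smyd3 with 2.66. The median over all genes tested was 8.73 CPM per kilobase, and 32 of 42 members were above it. Members that fell came from the whole range, from Hdac2 near the top to Suv39h2 near the bottom.

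Base composition differed between members that fell and those that did not pass. The 12 members that fell had a median GC content of 44.4% (41.6% to 52.5%), and the 29 that did not pass had 51.2% (42.5% to 60.8%), while Hdac7 had 60.2%. Across the 42 members, which are not independent replicates, Spearman's rho of log2 change with GC content was 0.51, and across 14858 genes it was 0.27. Over deciles of all genes by GC content the median change went from -0.12 in the lowest to 0.16 in the highest. With a correction for transcript length and GC content 12 members fell and 1 rose, but 8 of the 12 were the same. Among all genes 1779 fell and 1172 rose with the correction, against 1782 and 1693 without it. Setd2 (-0.12, adjusted p = 0.133), Ash1l (-0.12, 0.117), Kdm5a (-0.07, 0.379) and Hdac2 (-0.21, 0.0783) no longer passed, nor did the rise of Hdac7 (0.10, 0.311). Suv39h1, Kdm2b, Hdac6 and Prmt5 passed with the correction, and Kdm6a was called higher (0.15, 0.0481). Ezh2 at -0.73, Suv39h2 at -0.70 and Hdac4 at -0.44 moved little, and Nsd1 passed with a smaller change of -0.18. Along the trend the correction removed the falls of Setd2, Ash1l and Kdm5a and the rise of Hdac7, with Kdm6a called higher.

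**Figure D5:**
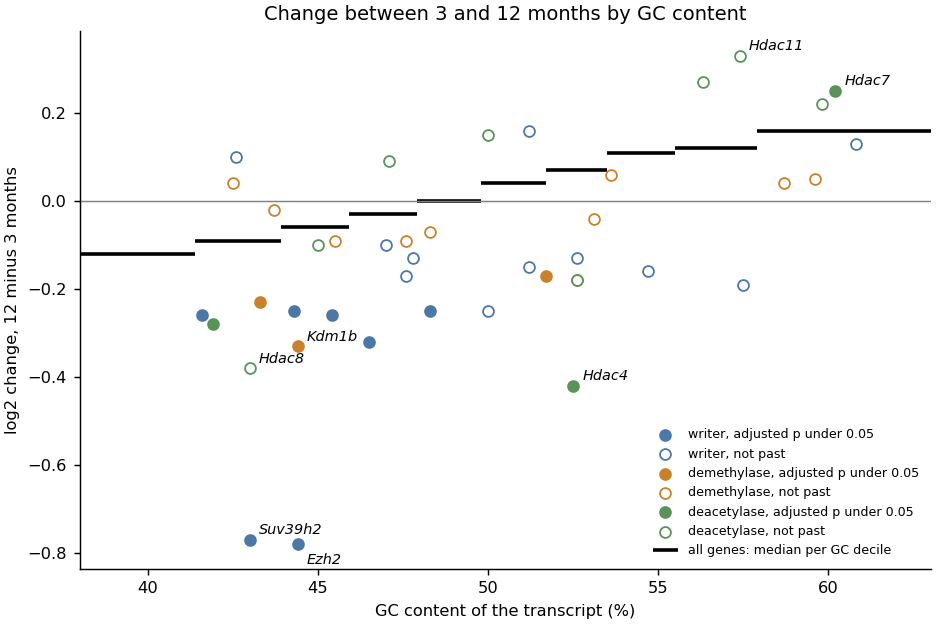
The horizontal axis is the GC content of the transcript in percent and the vertical axis the log2 change from 3 to 12 months, a point per enzyme coloured by class and filled where the adjusted p was under 0.05, with black bars for the median over all genes in each decile of GC content. Filled points below zero sit mostly at the low GC side, Ezh2, Suv39h2 and Hdac4 lie far below the bars, and Hdac7 lies near them at 60.2% GC.

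Genes that work with these enzymes were counted over lists drawn from the same pathways, and their counts stand against 11.5% of all genes tested that fell and 10.9% that rose, with a median of 0.02. Of 27 other histone methyltransferases 3 fell and 0 rose from 3 to 12 months, with a median log2 change of -0.10, a share of falls close to that over all genes. They were Nsd2, named Whsc1 in the table, an H3K36 methyltransferase, with -0.57 ± 0.08 (adjusted p = 0.000213), Setd5 with -0.21 and Kmt2c, an H3K4 methyltransferase, with -0.28. Nsd2 had means of 124.5, 118, 89.4 and 83.6 CPM at 3, 6, 9 and 12 months. Of 10 other demethylases tested, Kdm7a fell (-0.37 ± 0.08, adjusted p = 0.00448). Among 23 Polycomb partners tested 6 fell and 1 rose, with a median of -0.06. Mtf2, an accessory subunit that recruits PRC2, fell with -0.40, the ubiquitin ligase Rnf2 of the sister complex PRC1 with -0.30 and the chromobox reader Cbx2 with -0.51, while Cbx6 rose with 0.28.

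Corepressor subunits that carry the class I deacetylases fell in 5 of 23 cases and rose in 0, with a median of -0.15. Sin3a, the scaffold of the Sin3 complex, changed by -0.30 ± 0.05 (adjusted p = 0.000837), Chd4, the remodelling ATPase of NuRD, by -0.36 ± 0.06 (0.00167) and Gatad2b of NuRD by -0.34 ± 0.09 (0.0133). Of 9 histone acetyltransferases tested 1 fell, Hat1, which acetylates newly made histone H4, with -0.30 ± 0.09 (0.0188).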

How the data were processed

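RNA of whole ovaries was sequenced from libraries that keep the strand, per the labels' protocols, and mm10 was used, per the submitters' processing notes. Neither the aligner nor the counter is given in the sources used here. The authors deposited estimated counts per gene, which need not be whole and were rounded here, and log2 values normalized by a method not given. Each table has 1 further column of values that matched no sample and was not used. Ages come from the labels, which give no batch. Since no label names separate animals, the spread behind each p-value is that between libraries and may be technical.

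Counts were tested with edgeR 4.0.16 (quasi-likelihood, robust, TMM, a mean per age over all libraries) in R 4.3.3 after its filter (minimum count 10, minimum total 15), with Benjamini-Hochberg adjustment over 15518 genes. The trend used age in months. Alternatives were other size factors, DESeq2 1.42.0, limma 3.58.1 on counts and on the authors' log2 values, other filters, only the ages compared, a spline correction for length and GC content, leaving out the 3 libraries over 5 CPM of Cr2, an adjusted p under 0.01, and each library left out in turn. GC content and length came from the longest GENCODE transcript of each gene and sequences from RefSeq. The steps were tested on simulated data. Members past the threshold from 3 to 12 months or along the trend, the highest member of each other role, and Ezh1, Ezh2, Hdac1 and Hdac2 are given with every library. From each pathway list up to 3 genes per direction with the smallest p are named. The members and lists were chosen with earlier results of these data known.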

Additional observations from a re-analysis of the deposited data

Results flagged for a closer look

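Of 168 groups of libraries (42 members at 4 ages), 6 had a library whose gap to its nearest neighbour exceeded Dixon's 95% critical value, and chance alone gives about 1 in 20. Replicate 1 at 3 months had the lowest Ehmt2, with 164.4 CPM against 179 to 184.5 in the others, and the lowest Nsd1, with 240.6 CPM against 281 to 295. Replicate 1 at 6 months, the library with the lowest total, was low in Prmt1, with 113.7 CPM against 132 to 138, and in Hdac2, with 181.7 CPM against 189.9 to 192. Kdm2b was low in replicate 2 at 6 months, with 44.4 CPM against 48.5 to 49.9. Kdm3b was low in replicate 4 at 12 months, with 112.8 CPM against 120.6 to 121.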

How the results depend on the processing

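For 12 against 3 months the number of members that fell ran from 7 (without replicate 3 at 12 months) to 13 when single libraries were left out, and was 6 at an adjusted p under 0.01. The number that rose ran from 0 to 1, and was 0 at an adjusted p under 0.01. Without replicate 5 at 3 months the 1 that rose was Hdac10 and not Hdac7. Along the trend 10 fell at an adjusted p under 0.01. The number that rose along the trend was 2 with DESeq2 and 2 without the 3 Cr2-rich libraries, and ran from 1 to 3 with single libraries left out. From 6 to 9 months 7 members were called with the length and GC correction, 5 without the Cr2-rich libraries, 4 at an adjusted p under 0.01, and 7 to 14 with single libraries left out. The 14, without replicate 5 at 9 months, included rises of Ezh1 and Hdac5. From 9 to 12 months 0 to 1 was called with single libraries left out. The cause of these shifts was not tested, except that a stricter threshold can only remove calls. The log2 change of Kdm4a was -0.039 with the length and GC correction, and that of Kdm6a was -0.046 without the Cr2-rich libraries and ran from -0.047 (without replicate 2 at 12 months) to 0.089 with single libraries left out. Over 475 values of named members under the alternatives, 427 kept their direction and side of the threshold, 35 lost the call, 10 gained it and 3 reversed. Ezh2 (-0.94 to -0.68), Setdb1 (-0.28 to -0.23), Nsd1 (-0.37 to -0.18) and Hdac4 (-0.46 to -0.38) kept their call in all 19 alternatives. No paired analysis was possible because replicate numbers were given in accession order and pair nothing. The largest standard errors were those of Suv39h2 and Hdac9, 0.23 and 0.22, and the part of depth in them was not tested.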
